A study of Mus musculus with 2 samples.

Results

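Imprinted growth genes were described in mouse embryonic fibroblasts of 2 genotypes, with 1 Affymetrix array for each. Their members were chosen by name, as every probe set of the array whose only platform gene symbol was H19, Dlk1, Meg3, Peg3, Mest, Plagl1, Grb10, Ndn, Sgce or Zim1. Of these 10 genes, 9 had such a probe set, of 18193 genes represented on the array. H19 had none, because its probe set is listed for both H19 and the microRNA gene Mir675, so it has no value of its own among the genes below. The 9 genes had 36 probe sets.

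The control fibroblasts were wild type and the others, called the mutant, were homozygous for Phc2 L307R, a missense change in the SAM domain through which this subunit of Polycomb repressive complex 1 polymerises. Both cultures were labelled C57BL/6, came from embryos of day 12.5 and were at passage 1. The labels do not say how many embryos or which parents gave each culture. Nothing beyond the Phc2 genotype distinguishes the groups in the labels, and no value below has a replicate, so no test was run between the genotypes and the number of arrays limits the precision.

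Imprinted genes are transcribed mainly from 1 parental allele, which is set by DNA methylation laid down at control regions in the egg or sperm. Genes expressed from the paternal copy often promote the growth of the embryo, and genes expressed from the maternal copy often restrain it. Many of them are abundant in embryonic mesenchyme and fall as tissues mature, and the zinc-finger factor Plagl1 is known to act on several of the others. In embryonic tissue Dlk1, Peg3, Mest, Plagl1, Ndn and Sgce are expressed from the paternal allele, and H19, Meg3, Grb10 and Zim1 from the maternal allele, while Grb10 is paternally expressed in neurons. The arrays measured the total transcript of both alleles, and an inbred strain leaves no sequence difference between them, so the parental origin of a transcript was not measured here.

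Most of the 9 genes had a somewhat higher signal in Phc2 L307R, and none differed 2-fold. The log2 ratio, Phc2 L307R over wild type at the brightest probe set of a gene, was above 0 in 8 of 9 genes, with a median of 0.39, a lowest value of -0.16 (Ndn) and a highest of 0.59 (Zim1). Over all 11408 measured genes, those above the floor of 94.8 on at least 1 array, the median was 0.06 and 59.1% lay above 0. The floor is the higher of the 2 arrays' median signals. A difference of at least 2-fold was seen in 0 of the 9 genes and in 1.11% of all measured genes, so a count of 0 in so short a list is no result about these genes. At least 1.5-fold was reached by 1 of the 9 (Zim1) and by 7.44% of all measured genes. Arrays of whole cultures cannot tell fewer cells of a type from less RNA per cell.

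The only error in the data is the disagreement between probe sets of 1 gene, with an SD of 0.32 in the log2 ratio over 5460 genes. It does not cover the spread between cultures. Of the 9 genes, 5 lay farther from 0 than this SD (Dlk1, Peg3, Mest, Grb10 and Zim1), as did 27.7% of all measured genes. The count was 3 after loess (Peg3, Mest and Zim1) and 4 or 5 under the other settings, with Meg3 in place of Grb10 when probe sets were averaged and in place of Dlk1, which then had no measured probe set, without _x_at and _s_at probe sets. The 5 genes named first also lay above the 85th percentile of all measured genes. Sgce, Meg3 and Ndn lay at percentiles 50.1, 52.6 and 22.8 by their brightest probe sets, and Plagl1 at 73.8.

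**Figure D1:**
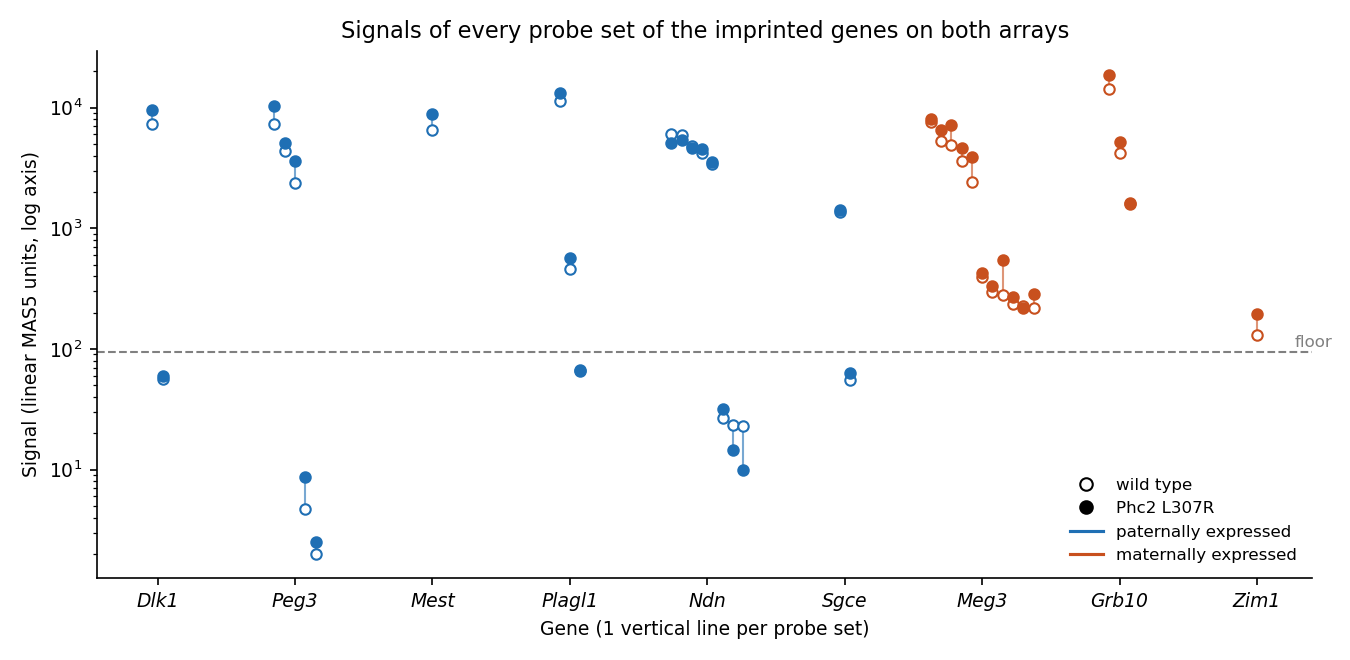
Signal of each of the 36 probe sets on both arrays (vertical log axis, linear MAS5 units), by gene, with open points for wild type and filled points for Phc2 L307R, and the floor of 94.8 as a dashed line. Filled points lie above open ones at most probe sets over the floor and the reverse holds at the brightest probe sets of Ndn, while 8 probe sets lie below the floor on both arrays.

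Promoter windows from RefSeq (build GRCm38.p6, 250 bases before to 50 after a start site, 5' to 3') are shown for 4 genes, Peg3, Mest, Meg3 and Ndn. Peg3 and Mest had higher ratios at their brightest probe sets. Meg3 had higher ratios at other bright probe sets but 0.08 at its brightest, and Ndn had -0.16 at its brightest. Where a gene had several windows, 1 with a match is shown. Capitals mark matches on either strand to TGCCGC, read as GCGGCA where it sits on the other strand, the hexamer bound by the imprint guardian ZFP57 when methylated, or to GGGGCCCC, a palindrome bound by Plagl1.
Peg3, chr7:6730370-6730669, minus strand: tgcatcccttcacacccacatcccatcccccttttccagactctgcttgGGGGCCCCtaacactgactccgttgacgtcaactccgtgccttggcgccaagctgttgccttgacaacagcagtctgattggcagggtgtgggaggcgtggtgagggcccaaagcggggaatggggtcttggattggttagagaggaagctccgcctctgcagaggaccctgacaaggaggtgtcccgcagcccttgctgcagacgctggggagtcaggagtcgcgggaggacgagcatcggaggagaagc
Mest, chr6:30737800-30738099, plus strand: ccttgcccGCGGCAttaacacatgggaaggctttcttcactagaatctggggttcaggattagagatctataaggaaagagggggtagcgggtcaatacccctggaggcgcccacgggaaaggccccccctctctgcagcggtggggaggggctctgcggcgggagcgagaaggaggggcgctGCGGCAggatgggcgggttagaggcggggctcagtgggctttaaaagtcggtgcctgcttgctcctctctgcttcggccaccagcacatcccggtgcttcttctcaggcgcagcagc
Meg3, chr12:109540746-109541045, plus strand: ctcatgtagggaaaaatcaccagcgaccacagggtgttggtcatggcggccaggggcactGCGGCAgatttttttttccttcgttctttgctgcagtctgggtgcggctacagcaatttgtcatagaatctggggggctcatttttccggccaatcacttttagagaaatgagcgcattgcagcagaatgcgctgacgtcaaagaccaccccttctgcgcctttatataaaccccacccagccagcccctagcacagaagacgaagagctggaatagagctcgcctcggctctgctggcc
Ndn, chr7:62348027-62348326, plus strand: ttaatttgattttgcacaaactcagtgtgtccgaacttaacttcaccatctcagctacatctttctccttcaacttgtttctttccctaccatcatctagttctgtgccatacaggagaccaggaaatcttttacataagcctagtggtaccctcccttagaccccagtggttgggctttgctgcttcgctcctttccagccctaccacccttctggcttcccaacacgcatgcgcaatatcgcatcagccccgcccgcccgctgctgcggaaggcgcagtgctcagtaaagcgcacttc
The printed windows held 1 match to GGGGCCCC (Peg3), 2 to TGCCGC (Mest), 1 to TGCCGC (Meg3) and none of either (Ndn). A further window of Mest at chr6:30733256-30733555, a further window of Meg3 at chr12:109545148-109545447 and the window of Dlk1 held none of either. Whether matches go with the ratios was not tested. Among 32851 windows of the same length, 11.6% held TGCCGC and 1.08% held GGGGCCCC. The table had 12 windows for 8 of the genes, some of them overlapping, and 6 windows of 5 genes (Grb10, Meg3, Mest, Plagl1 and Zim1) held TGCCGC. A match describes the letters of the window and does not show that a factor binds there. CpG dinucleotides numbered 13 in the printed Peg3 and Meg3 windows, 17 in that of Mest and 11 in that of Ndn, but 8 in the further Mest window, 1 in the further Meg3 window and 9 in that of Dlk1, against a median of 7 over all windows.

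Among the paternally expressed genes, Peg3, Mest and Dlk1 had log2 ratios close to each other. Peg3 encodes a large zinc-finger protein of maternal behaviour and fetal growth. Its probe set 1433924_at read 7340 on the wild-type array and 10214 on the Phc2 L307R array, 1.39-fold higher, a log2 ratio of 0.48. Its probe set 1417356_at went from 2384 to 3590, a log2 ratio of 0.59, and 1417355_at from 4326 to 5111, a log2 ratio of 0.24. All 3 probe sets of Peg3 above the floor were thus higher in Phc2 L307R, with a mean log2 ratio of 0.44 ± 0.18 (SD over 3 probe sets). The other 2, 1447731_at and 1447732_x_at, had signals of at most 8.7 on either array and say nothing about the gene.

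Mest, an enzyme-like protein of the alpha/beta hydrolase fold in growing mesoderm, was represented by 1423294_at alone. It read 6456 on the wild-type array and 8864 on the other, a log2 ratio of 0.46. Dlk1, a membrane protein related to Notch ligands that keeps preadipocytes from maturing, read 7240 (wild type) and 9512 (mutant) at 1449939_s_at, a log2 ratio of 0.39. Both genes rest on 1 probe set above the floor, so no second probe set bears on them. The other probe set of Dlk1, 1442724_at, lay below the floor at 56.7 and 59.3.

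Plagl1 (Zac1), the zinc-finger factor named above, was higher by less. At 1426208_x_at the wild-type signal was 11285 and the mutant signal 13272, a log2 ratio of 0.23. At 1450533_a_at it was 460.5 and 568, a log2 ratio of 0.30. The 2 probe sets point the same way although their signals are far apart, and both differences are below the SD between probe sets of 1 gene.

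Sgce encodes epsilon-sarcoglycan, a membrane glycoprotein whose loss on the paternal allele causes myoclonus dystonia in people. The wild-type signal was 1363 and the mutant signal 1424, a log2 ratio of 0.06, equal to the median of all measured genes. Ndn, which encodes necdin, a MAGE-family protein of the Prader-Willi region that slows cell division, was the only 1 of the 9 genes with a ratio below 0 at its brightest probe set, 1435383_x_at, with signals of 5965 and 5348. Its 5 probe sets above the floor differed in direction. The log2 ratio was -0.24 at 1435382_at, -0.16 at 1435383_x_at, -0.07 at 1415923_at, 0.04 at 1437853_x_at and 0.10 at 1455792_x_at, with a mean of -0.07 ± 0.14 (SD over 5 probe sets). The highest of them was 0.10 and the lowest probe set of Peg3 above the floor was 0.24.

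**Figure D2:**
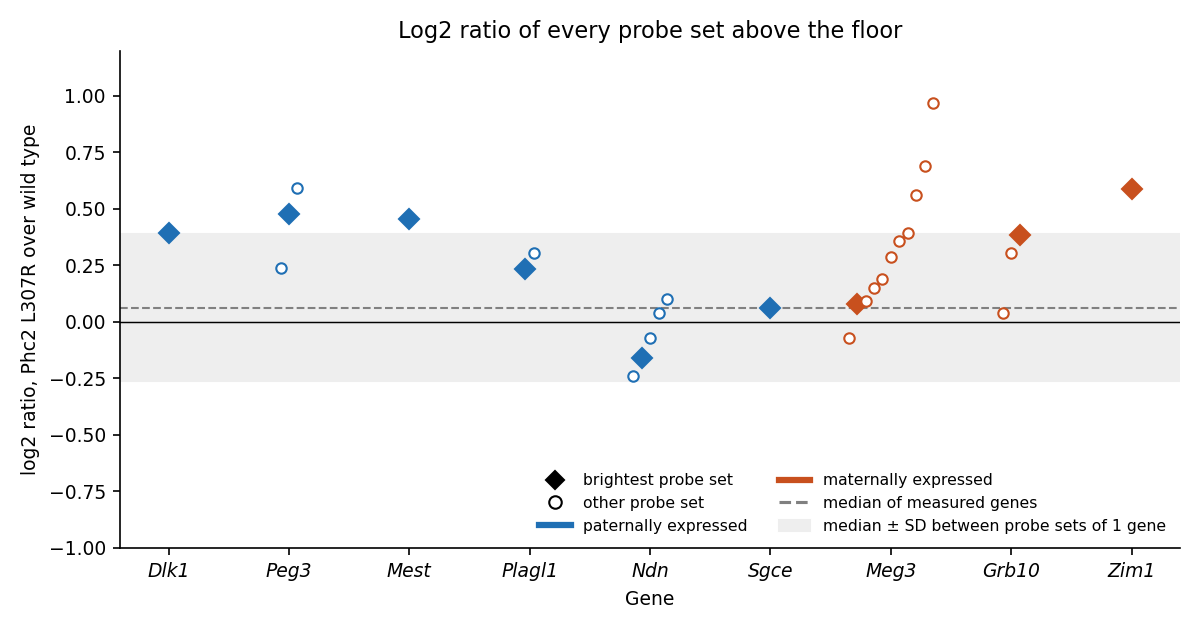
Log2 ratio (Phc2 L307R over wild type) of the 28 probe sets above the floor, by gene, with a diamond for the brightest probe set of each gene and open circles for the others. The grey band spans the SD of 0.32 between probe sets of 1 gene around the median of all measured genes (0.06), and Meg3 alone ranges from -0.07 to 0.97 across its 11 probe sets.

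Among the maternally expressed genes, Meg3 had the most probe sets and the widest spread. Meg3 is a long non-coding RNA transcribed from the maternal copy of the Dlk1 region. All its 11 probe sets lay above the floor on both arrays, and 10 of 11 were higher in Phc2 L307R. The log2 ratio ran from -0.07 at 1452906_at to 0.97 at 1429257_at, with a median of 0.29 and a mean of 0.34 ± 0.31 (SD over 11 probe sets). At 1429257_at the wild-type signal was 278.3 and the mutant signal 544.4, 1.96-fold higher, the nearest that any of the 28 probe sets came to 2-fold.

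The value given for Meg3 depends on which probe set stands for it. The brightest, 1436713_s_at, had signals of 7621 and 8058 and a log2 ratio of 0.08. The next, 1452183_a_at, had 4877 and 7190 and a log2 ratio of 0.56, and 1426758_s_at had 2410 and 3889 and a log2 ratio of 0.69. The 5 probe sets with signals over 1000 on both arrays were all higher, with a median log2 ratio of 0.36, and of the 6 under 1000 on both, 5 were higher, with a median of 0.17. Without probe sets of the suffixes _x_at and _s_at, which can bind several transcripts, the gene's ratio was 0.56 in place of 0.08.

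Grb10 encodes an adaptor that binds the insulin and IGF receptors and restrains growth. At 1425458_a_at the wild-type signal was 14323 and the mutant signal 18708, a log2 ratio of 0.39. Its other probe sets gave 4170 and 5148, a log2 ratio of 0.30, at 1425457_a_at, and 1586 and 1631, a log2 ratio of 0.04, at 1430164_a_at. All 3 were thus higher in Phc2 L307R, by least at the dimmest. Zim1, a zinc-finger gene next to Peg3 on chromosome 7, was dim, with signals of 130.2 and 195.7 at its only probe set, and its log2 ratio of 0.59 was 0.15 when a floor at the 60th percentile was used.

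The ratios of paternally and maternally expressed genes overlapped. In the 6 paternally expressed genes the median log2 ratio was 0.31. The values ran from -0.16 to 0.48, and 5 of 6 were above 0. The 3 maternally expressed genes with a value had a median of 0.39, with all 3 above 0 and values from 0.08 to 0.59. The paternal median minus the maternal median was -0.07. This difference was above 0 under 3 of 11 other settings, namely 0.16 under a floor set to the 60th percentile, 0.0048 with quantile normalization and 0.08 without the dim Zim1. It was lowest, at -0.26, without _x_at and _s_at probe sets. Over single probe sets above the floor, 10 of 13 paternal and 14 of 15 maternal ones were higher, against 54.2% of all measured probe sets, but 11 of the maternal ones belong to Meg3.

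**Figure D3:**
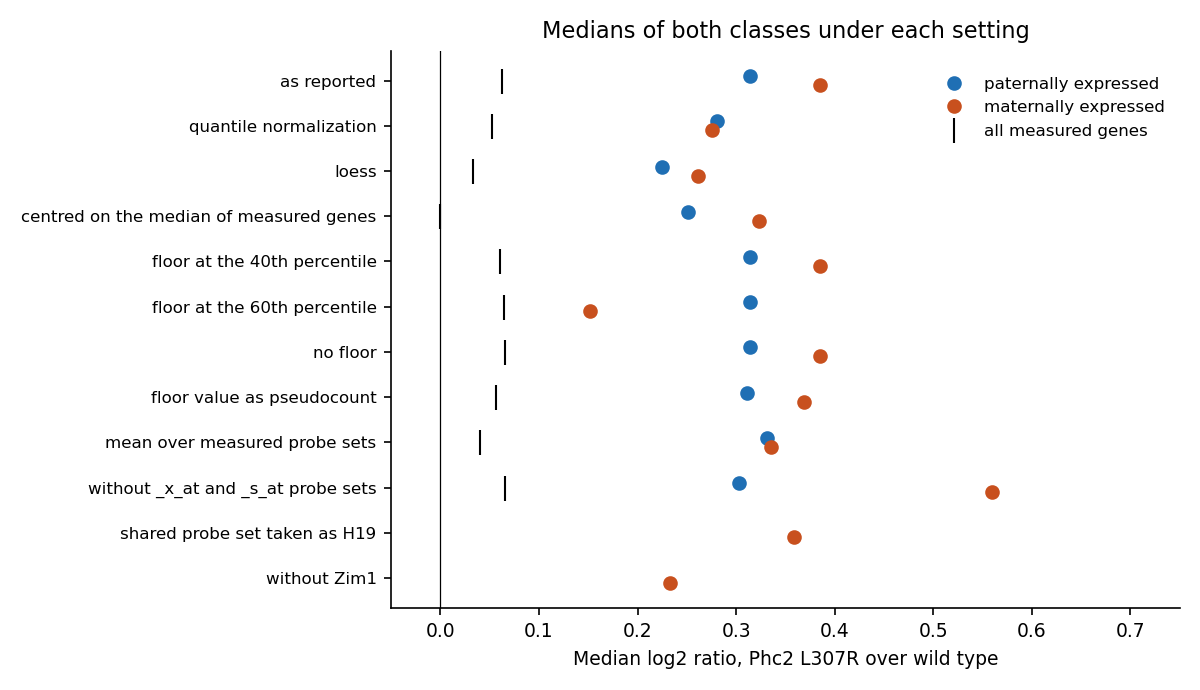
Median log2 ratio of the paternally and the maternally expressed genes, and of all measured genes, under each processing setting, with 1 line per setting. Both class medians stay above the median of all measured genes in each setting where that was computed, from 0.23 to 0.33 for the paternal class and from 0.15 to 0.56 for the maternal class, and their order changes between settings.

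Bright probe sets tended to be higher on the Phc2 L307R array, most of all at mean signals above those of the 9 genes. Of the 105 measured genes with a mean signal of 16384 or more, 92.4% had a log2 ratio above 0, with a median of 0.26, and none of the 9 genes was among them. From 4096 to 8192 the median was 0.06, with 61.7% above 0, and from 8192 to 16384 it was 0.09, with 68.6% above 0. Grb10, the brightest of the 9, lay just under a mean signal of 16384. Of the 184 genes within 0.5 of its mean log2 signal, 78.3% were above 0, with a median of 0.16. Around Plagl1 this share was 69.6% and the median 0.11. A mean signal of at least 4096 was seen in 7 of the 9 genes. Of these 7, 6 had a ratio above 0, against 66.8% of all measured genes as bright. With a loess fit of the ratio on signal subtracted, 8 of 9 genes were above 0, against 54.6% of all measured genes. The ratios were then 0.57 for Zim1, 0.40 for Peg3, 0.39 for Mest, 0.32 for Dlk1, 0.26 for Grb10 and 0.13 for Plagl1. Sgce was at 0.04, Meg3 at 0.01 and Ndn at -0.20. The part of array brightness in these ratios was not tested.

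**Figure D4:**
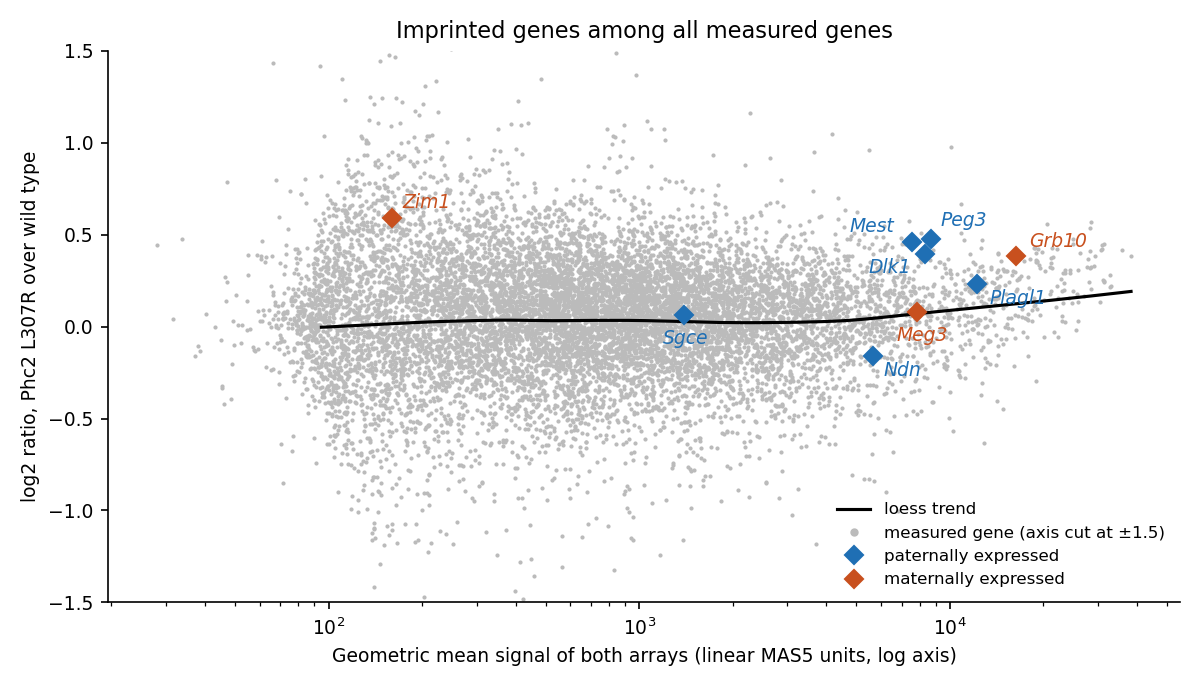
Log2 ratio against geometric mean signal of both arrays (log axis) for the measured genes, with the 9 imprinted genes as diamonds and the loess trend as a line; 19 genes lie beyond the vertical axis limits of ±1.5. The trend turns upward at high signal, and Peg3, Mest, Dlk1 and Grb10 lie above it while Ndn lies below it.

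Genes next to the imprinted genes on the chromosome had ratios in both directions. Counting the nearest 5 measured genes to the left and the nearest 5 to the right, 4 of 10 were higher around Peg3, with a median log2 ratio of -0.02, 3 of 10 around Mest, with a median of -0.04, and 2 of 10 around Plagl1, with a median of -0.09. The counts were 4 of 10 around Ndn, 3 of 10 around Sgce, 6 of 10 around Dlk1, 5 of 10 around Zim1 and 7 of 10 around Meg3. Around Grb10, 7 of 10 were higher, with a median of 0.17, among them Igfbp3, a carrier protein of IGFs, at 0.62, and Cobl, another imprinted gene, at 0.25. Within the Peg3 domain, Zim1 was at 0.59 and Usp29, a paternally expressed ubiquitin protease gene, at -0.02 with signals of 101.2 and 100.1. Within the Dlk1 and Meg3 domain, the maternal non-coding RNA Rian was at 0.10, with its 4 probe sets from 0.02 to 0.10, and Mirg at 0.36 at 1 probe set and -0.20 at another. Of the 74 different neighbours, some of them among the 9 genes, 33 were higher, against 59.1% of all measured genes, and 0 differed 2-fold, against 1.11%. Phc2 itself lies on chromosome 4, which holds none of the 10 genes.

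Other imprinted genes, taken from a list written from general knowledge, also had small differences. Of 22 listed as paternally expressed, 18 had a probe set and 13 were measured, 9 higher and 4 lower, with a median log2 ratio of 0.23. Of 29 listed as maternally expressed, many of them in placenta or brain only, 27 had a probe set and 20 were measured, 14 higher and 6 lower, with a median of 0.20. Of all measured genes 59.1% were higher. A 2-fold difference at the brightest probe set was seen in 0 of these 33 genes and in 1.11% of all measured genes. When the probe sets of each gene were averaged, these medians were 0.06 and 0.07, near the 0.04 of all measured genes under that setting, and under a floor set to the 60th percentile the paternal median was 0.07.

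Igf2, Cdkn1c and Igf2r are known regulators of embryonic growth. Igf2, the paternally expressed growth factor beside H19, had signals of 21026 and 29261 at 1448152_at, a log2 ratio of 0.48, but 2008 and 1749 at 1415931_at, a ratio of -0.20. The signals of 1448152_at were over 16384, and the median of measured genes with a mean signal that bright was 0.26. Cdkn1c, the maternally expressed cyclin-dependent kinase inhibitor p57, had signals of 2512 and 3667, a log2 ratio of 0.55. Igf2r, the maternally expressed receptor that clears Igf2, had signals of 4053 and 6242 at 1424112_at, a log2 ratio of 0.62. Its second probe set, 1424111_at, went from 1046 to 3430, 3.28-fold higher. The paternally expressed antisense RNA of that locus, Airn, was at 0.38 at the brightest of its 4 measured probe sets, with signals of 377.8 and 492.8. At these probe sets the receptor and its antisense RNA both read higher on the mutant array.

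The widest ratios of the paternal list were Peg12, at -0.71 or lower since its mutant signal of 70 was under the floor and its wild-type signal 155.1, and Gab1, a docking protein of growth factor receptors, at 0.58 (but -0.14 and -0.02 at its other probe sets). Nnat, a membrane proteolipid, was at 0.42, below Igf2. In the maternal list Dcn, the matrix proteoglycan decorin that is imprinted in placenta, was at 0.88, with signals of 1619 and 2972. Tfpi2, an inhibitor of serine proteases and a neighbour of Sgce, was at -0.87, with signals of 1235 and 676.4. Osbpl5, an oxysterol-binding protein, was at 0.60. Peg10, the neighbour of Sgce that shares its control region, was under the floor on both arrays, at 91.6 and 58.5.

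Partners and paralogs of the member proteins were mostly near the median of all genes. Of 18 listed, 13 were measured, 9 higher and 4 lower, with a median log2 ratio of 0.08. The receptors and substrates that Grb10 acts on differed little, with Igf1r at 0.11, Insr at -0.25, Irs1 at 0.08 and Irs2 at 0.02. Maged1, a MAGE-family relative of necdin, was at 0.45, with signals of 5383 and 7345. Dmd, the dystrophin gene whose complex contains sarcoglycans, was at -0.65, and Dag1, the dystroglycan of that complex, at 0.31. Dlk2, the paralog of Dlk1, was at 0.88 or more at a dim probe set and at -0.13 or lower at the other.

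Factors that keep imprints had ratios in both directions. Of 16 listed, 13 were measured, 5 higher and 8 lower, with a median log2 ratio of -0.06. Ezh2, the methyltransferase of Polycomb repressive complex 2, was at -0.66, and Uhrf1, which brings the maintenance methyltransferase to replicating DNA, at -0.57. Arid4a was at -0.48 and Smchd1, a chromatin protein of imprinted clusters, at -0.43. Dnmt1, the maintenance methyltransferase, was at -0.06 with signals of 2247 and 2152. The highest were Dnmt3a, a de novo methyltransferase, at 0.42, Trim28, the co-repressor that ZFP57 recruits, at 0.31, and Zfp57 itself at 0.23. No DNA methylation was measured.

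**Figure D5:**
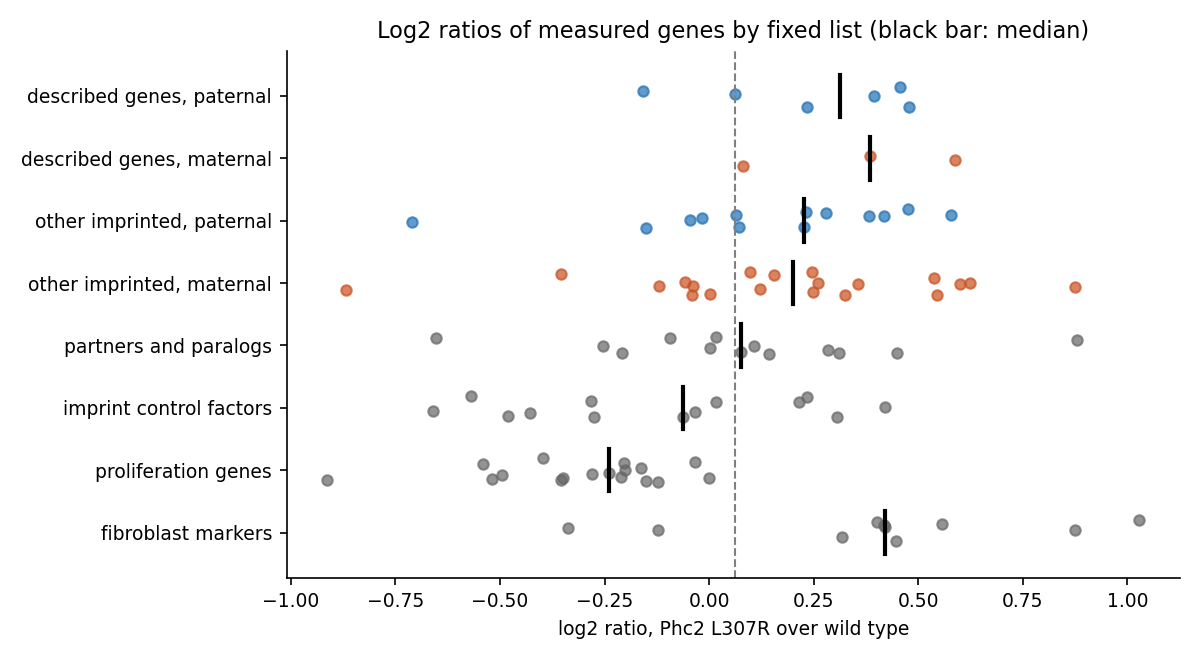
Log2 ratio of each measured gene in 8 fixed lists, with black bars for the list medians and a dashed line for the median of all measured genes (0.06). The imprinted lists centre between 0.20 and 0.39, the proliferation genes at -0.24 and the fibroblast markers at 0.42.

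Proliferation genes and markers of cell types were read on the same arrays. The share to compare their counts with is the 59.1% of all measured genes that had a ratio above 0. Counts below such as 4 of 6 (skeletal muscle) or 2 of 3 (endothelial) are close to it. Of 17 measured proliferation genes 16 were lower in Phc2 L307R and 1 was not, with a median log2 ratio of -0.24, from -0.91 (Ccne2) to 0.0009 (Pcna). All 10 fibroblast markers lay above the floor, 8 of them higher (median 0.42), and their summed signal was 117328 against 156755 in the mutant. Pdgfra (-0.12) and Pdgfrb (-0.34) were lower. Col1a1, Col1a2, Col3a1, Vim and Fn1 had signals over 16384 on both arrays. Of measured genes with a mean signal that bright, 92.4% were higher, with a median of 0.26. All 8 chondrocyte markers were measured and 7 read higher (median 0.91), but most were dim. Matn1 was under the floor in wild type, at 90.4, so its ratio of 1.62 is a bound. Acan, Comp, Hapln1 and Col11a2 had wild-type signals from 129.9 to 185.9. The summed signals were 5948 and 9046, of which Col2a1 gave 4037 and 5685. Skeletal muscle markers, whose cells also express H19 and Dlk1, had 6 of 8 measured, 4 higher, with summed signals of 16710 and 18161, while Myf5 and Pax7 lay below the floor. Adipocyte markers had 4 of 6 measured, with Pparg and Adipoq below the floor, and neuron markers 4 of 8, with a median of -0.05, although Map2 was at -1.31 and Stmn2 at 1.01. Of 7 macrophage markers 4 were measured and 3 of these higher, with a median of 0.56, while Ptprc, C1qa and C1qb lay below the floor. The 4 were dim, with signals of at most 242.1 on either array. Summed signals of all 7 were 593.1 and 804.5. Of 6 epithelial markers 3 were measured, with a median of -0.31, and Epcam and Cdh1 lay below the floor. Of 6 endothelial markers 3 were measured, 2 of them higher, with a median of 0.05, while Emcn was at -1.15 (210.8 and 94.9) and both Pecam1 and Cdh5 were under the floor. None of the hepatoblast and erythroid markers lay above the floor. The part of growth rate and of cell mixture in the ratios of the imprinted genes was not tested.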

How the data were processed

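Total RNA of each culture was labelled and hybridised to 1 array. The authors deposited linear intensity values for 45101 probe sets. Per the submitters' processing notes these came from MAS5 in Affymetrix Expression Console (versions, array scaling and genome build: not given in the sources used here). Each array's trimmed mean (2% from each end) was 500. The 64 control probe sets were left out. Of the rest, 34945 had 1 gene symbol, 932 several and 9160 none, and 34741 of the probe sets with 1 symbol matched a RefSeq gene (GRCm38.p6), whose symbol was used; the table also gave gene order. Signals below the floor of 94.8 were raised to it, so those ratios are bounds. A gene stood for its brightest probe set. Named genes were the 10 imprinted genes, up to 4 of largest ratio per list, Igf2, Cdkn1c, Peg10, Rian and the markers. Airn, Mirg, Usp29, Igfbp3, Cobl, Dnmt1, Dnmt3a, Trim28, Zfp57, Pcna, Igf1r, Insr, Irs1 and Irs2 were chosen after their values were seen, as were the neighbour and signal-band comparisons. Members and lists were chosen with earlier results of these data known. Calculations used Python 3.11.15, pandas 2.3.3 and statsmodels 0.14.6 (loess span 0.4, 3 iterations), and were tested on simulated data. With 1 array per genotype nothing was left out in turn.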

Additional observations from a re-analysis of the deposited data

How the results depend on the processing

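Alternatives were quantile normalization, loess, centring, floors set to the 40th or 60th percentile, the absence of any floor, a pseudocount, the mean over probe sets, removal of _x_at and _s_at probe sets, and fold thresholds. Those chosen after seeing the data were the probe set shared by Mir675 and H19 taken as H19, and the removal of Zim1. Of 151 values, 142 moved by less than the SD between probe sets of 1 gene (counts by less than 1.5 times) and 9 moved by more. This is a wide limit, since the SD of 0.32 is close to the class medians of 0.31 and 0.39. The paternal minus maternal difference went from -0.07 to 0.16 within it, and the maternal median from 0.39 to 0.15. Floor settings left the ratios of the bright genes Dlk1, Peg3 and Mest unchanged. At 1.5-fold, 1 of the 9 imprinted genes (Zim1) passed, against 7.44% of measured genes; at 2-fold and 3-fold none did under any setting. The count of all genes past 2-fold was 127 as reported, 217 and 62 with floors at the 40th and 60th percentiles, 281 with no floor and 48 with the pseudocount, and it was 849 at 1.5-fold and 14 at 3-fold. Centring turned the split from 66 higher and 61 lower to 47 and 75. The ratios of Dlk1, Peg3, Mest, Plagl1, Grb10, Zim1, Meg3 and Sgce were above 0 and that of Ndn below 0 under every setting that gave them a value, though Sgce reached 0.0009 with centring. The maternal median was 0.23 without Zim1. Cultures were not replicated, which no setting can make up for.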

Other observations

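The probe set 1448194_a_at, listed for both Mir675 and H19, read 22467 on the wild-type array and 28265 on the mutant array. Its log2 ratio was 0.33, and 0.17 after the loess trend of ratio with signal was subtracted. The median of measured genes with a mean signal of 16384 or more was 0.26 before that subtraction. The array does not tell which of the transcripts listed gave the signal of 1448194_a_at. Counted as a maternally expressed gene, it would set the median of that class at 0.36 in place of 0.39.

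Of 33 measured imprinted genes outside the 10, 23 had a log2 ratio above 0 and 10 below, while 59.1% of all measured genes were above 0. With the probe sets of each gene averaged, the medians of the paternal and maternal lists were 0.06 and 0.07.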
